A study of Mus musculus with 15 samples.

Results

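The regions described here are start-site bins of silent genes, that is, 2 kb stretches of the mouse genome (build mm9) lying within 1 kb of a transcription start site whose transcript had RNA listed at 0, with no start site of RNA above 0 within the same reach. Of 98085 bins, 642 met this rule. They touch the start sites of 757 silent transcripts of 679 genes, out of 5782 silent transcripts in the gene table (20.4% of 28373). In 314 of the bins the start site lies inside the bin, and in 328 it lies up to 1 kb outside. The other bins fell into 2466 with a start site of RNA above 0 nearby, 33610 in genes away from start sites and 61367 outside genes, and 30 bins near both a silent and a transcribed start site were left out of the silent class. The bins were chosen by their RNA values near start sites, so RNA is not tested below. No histone value entered the rule. The set of bins and the gene lists used below were chosen with earlier results of these data known. The histone comparisons are therefore not shown to be independent of that choice.

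All 15 libraries came from wildtype TT2 cells, a male embryonic stem cell line of the strain cross C57BL/6 x CBA, of the inner cell mass stage, with no treatment named in the labels. Chromatin immunoprecipitation and sequencing (ChIP-seq) of H3K9me3 used 1000000, 100000 and 10000 cells (1 library each) and 1000 cells (3 libraries, lettered a, b and c). There was 1 H3K27me3 library at each of 100000, 10000 and 1000 cells, with panH3 in 2 libraries of 1000 cells (a and b), 1 H3K4me3 library at each of 100000, 10000 and 5000 cells, and 1 RNA library of 1000 cells. The line is 1 genotype, and the labels do not say whether lettered libraries came from separate cultures. The p-values below therefore measure the spread between these libraries, which may be technical. For H3K27me3, with 1 library per cell number, that spread also holds differences between cell numbers.

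H3K9me3, trimethylation of lysine 9 of histone H3, is a mark of constitutive heterochromatin and of silenced repeats and gene clusters. H3K27me3, laid down by Polycomb repressive complex 2, covers the promoters of many developmental regulators in embryonic stem cells, often at CpG-rich promoters that also carry H3K4me3, a mark of active and poised start sites. The panH3 antibody binds histone H3 whatever its modification, so its signal follows nucleosome density and how well reads can be placed. Values are RPKM, read density scaled to window length and library depth, and differences are on the log2(RPKM + 0.1) scale. "Called" means an adjusted p under 0.05 in limma over all bins, with Benjamini-Hochberg adjustment.

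Promoters of genes that the results turn on are shown first, to show how widely their number of CG dinucleotides varies. They are examples, not typical members: among 57 matched promoters of bins called higher in H3K27me3 only, the median was 4 CG (quartiles 2 to 10, highest 42), and 15 held 10 or more. No contrast in CG content between the marks is read from these examples, since too few genes had a matched promoter, as given below. Each runs from 250 bases before to 50 bases after the RefSeq start site in build GRCm38.p6, 5′ to 3′ on the gene's strand, with every CG in capitals. Gsx2 (chr5:75075351-75075650, plus strand), a homeobox regulator of the forebrain, and Gad2 (chr2:22622077-22622376, plus strand), which encodes a GABA-synthesising enzyme, belong to bins high in H3K27me3, and their promoters hold 17 and 14 CG.
Gsx2: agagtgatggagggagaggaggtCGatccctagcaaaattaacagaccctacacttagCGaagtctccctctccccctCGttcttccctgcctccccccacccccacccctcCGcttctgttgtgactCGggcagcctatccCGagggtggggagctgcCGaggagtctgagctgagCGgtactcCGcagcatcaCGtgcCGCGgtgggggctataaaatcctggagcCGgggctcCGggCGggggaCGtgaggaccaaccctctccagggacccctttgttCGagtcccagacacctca
Gad2: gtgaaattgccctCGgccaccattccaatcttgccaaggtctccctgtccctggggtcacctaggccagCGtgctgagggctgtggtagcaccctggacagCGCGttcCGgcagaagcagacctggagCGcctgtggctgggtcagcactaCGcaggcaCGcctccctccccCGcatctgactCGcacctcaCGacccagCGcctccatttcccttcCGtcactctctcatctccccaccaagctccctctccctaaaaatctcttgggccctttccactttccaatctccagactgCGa
Gdf10 (chr14:33923337-33923636, plus strand), a secreted growth factor of the TGF-beta superfamily, also lies in a bin high in H3K27me3, and its promoter holds 42 CG.
Gdf10: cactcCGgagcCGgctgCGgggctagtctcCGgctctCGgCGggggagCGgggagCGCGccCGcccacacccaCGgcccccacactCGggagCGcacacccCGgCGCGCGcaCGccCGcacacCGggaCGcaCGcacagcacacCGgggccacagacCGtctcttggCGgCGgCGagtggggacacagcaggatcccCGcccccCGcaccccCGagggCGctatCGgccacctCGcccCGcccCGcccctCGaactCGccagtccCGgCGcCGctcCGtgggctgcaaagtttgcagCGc
Slc39a12 (chr2:14388148-14388447, plus strand), a zinc transporter, Speer2 (chr16:69863695-69863994, minus strand), of a testis-expressed family, and Mrgprb8 (chr7:48388276-48388575, plus strand), a Mas-related G protein-coupled receptor, belong to bins high in H3K9me3, and their promoters hold 4, 3 and 2 CG.
Slc39a12: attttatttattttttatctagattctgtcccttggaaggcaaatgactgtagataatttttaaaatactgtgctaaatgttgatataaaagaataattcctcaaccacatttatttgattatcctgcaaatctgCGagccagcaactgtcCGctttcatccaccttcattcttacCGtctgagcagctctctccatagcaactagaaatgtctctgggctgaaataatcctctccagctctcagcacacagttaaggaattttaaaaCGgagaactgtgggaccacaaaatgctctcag
Speer2: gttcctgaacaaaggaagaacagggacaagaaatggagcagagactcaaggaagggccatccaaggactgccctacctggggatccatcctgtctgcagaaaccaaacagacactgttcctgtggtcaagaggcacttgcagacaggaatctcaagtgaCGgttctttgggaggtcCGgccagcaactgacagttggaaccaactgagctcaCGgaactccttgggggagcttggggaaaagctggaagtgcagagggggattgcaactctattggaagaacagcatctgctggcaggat
Mrgprb8: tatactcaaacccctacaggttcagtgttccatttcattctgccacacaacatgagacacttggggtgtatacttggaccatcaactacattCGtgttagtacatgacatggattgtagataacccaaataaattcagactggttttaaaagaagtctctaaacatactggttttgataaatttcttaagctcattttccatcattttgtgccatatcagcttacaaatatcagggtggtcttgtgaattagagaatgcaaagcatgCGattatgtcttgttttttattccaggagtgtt
Krt9 (chr11:100193197-100193496, minus strand), a keratin of palm and sole skin, lies in a bin high in both marks, and its promoter holds 4 CG.
Krt9: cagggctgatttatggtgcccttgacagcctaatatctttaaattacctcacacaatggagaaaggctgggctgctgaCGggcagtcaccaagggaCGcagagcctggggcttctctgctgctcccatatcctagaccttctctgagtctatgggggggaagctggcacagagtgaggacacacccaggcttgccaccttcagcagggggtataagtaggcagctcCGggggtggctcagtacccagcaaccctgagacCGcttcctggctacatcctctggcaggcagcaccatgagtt
Hoxd8 (chr2:74704365-74704664, plus strand), of a bin high in H3K27me3 as well, holds 6 CG in its 300 bases, nearer to the median of 4 than Gsx2, Gad2 or Gdf10.
Hoxd8: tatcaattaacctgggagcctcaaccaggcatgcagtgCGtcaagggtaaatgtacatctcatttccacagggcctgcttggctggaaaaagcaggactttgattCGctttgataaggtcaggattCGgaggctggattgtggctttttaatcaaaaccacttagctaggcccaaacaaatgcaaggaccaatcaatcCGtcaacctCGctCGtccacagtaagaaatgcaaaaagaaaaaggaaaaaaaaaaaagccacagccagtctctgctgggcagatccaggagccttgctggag

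Silent genes as a set had CG-poor promoters. RefSeq promoters were found for 498 of the 621 member genes that are not small RNA genes (80.2%), 429 by symbol, 64 by transcript accession and 5 by synonym. Their median was 2 CG in 300 bases, and 6.2% held 10 or more, against a median of 7 and 43.5% over all 32851 promoters in the table and a median of 21 in genes with RNA of at least 1 RPKM. The letters TATAAA, searched on both strands with no other motif, stood in 30.5% of the members' promoters and in 13.6% of all promoters. A comparison of CG content between the mark classes below is void: fewer than 80% of the genes had a promoter in the H3K27me3-only class (75%), the H3K9me3-only class (78.6%) and the class with both marks (60.0%).

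The labelled cell type was checked against markers in the RNA library. All 12 embryonic stem cell markers were at 5.52 RPKM or more, with a median of 64.43, among them Pou5f1 at 81.38 and Zfp42 at 221.81. Of 12 fibroblast markers, which would show feeder cells, 3 were at 1 RPKM or more (Fn1 at 38.45, Vim at 13.47 and Thy1 at 1.79), and Col3a1, Postn, Dcn and Lum were at 0. Recovered depth was 13.04 to 45.52 M reads per bin library, so that a typical bin rests on 9.9 to 36.3 reads. Several limits bear on every result. RNA at 0 in 1 library of unknown depth means listed at 0, and "silent" is used here in that sense only. Ndufb11, a respiratory chain gene that cells in general use, is among the transcripts listed at 0, and 83 of 4259 silent transcripts with an H3K4me3 window reached 4.40 RPKM of that mark, the median of transcripts with RNA of at least 1 RPKM. The silent transcripts were short (median exon length 1012.5 bases, against 2679 for transcripts with RNA). No bin exceeded 5 RPKM, so bins above that level appear to be left out. Of the 642 bins, 24 were at 0 in all 11 libraries, and reads of near-identical gene copies cannot be told apart where families repeat.

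By mean level over the set, silent start sites held about as much H3K9me3 as panH3, and H3K27me3 above it. The mean level over the 642 bins was 0.411, 0.414 and 0.415 RPKM in the 1000-cell H3K9me3 libraries a, b and c, and 0.401 and 0.399 RPKM in panH3 a and b. At start-site bins with RNA above 0 the mean was 0.213 ± 0.0025 RPKM (SD, n = 3) for H3K9me3 and 0.445 ± 0.0014 (SD, n = 2) for panH3. The 3 H3K9me3 libraries of the silent bins lay slightly above panH3, and those of the transcribed bins well below it. By medians over the silent bins the order turned, with 0.383 RPKM for H3K9me3 and 0.410 for panH3. The cells were measured in bulk, so a mark on fewer cells and less of it on each cell cannot be told apart. H3K27me3 over the silent bins averaged 0.586, 0.603 and 0.512 RPKM at 100000, 10000 and 1000 cells, above the 0.406 to 0.414 RPKM over all bins in the same libraries. Start-site bins with RNA averaged 0.609, 0.655 and 0.469 RPKM, so the order of these 2 classes in H3K27me3 changed with the library. By medians over the silent bins, H3K27me3 was at 0.46, 0.42 and 0.46 RPKM, closer to panH3 at 0.40 and 0.42 RPKM (a and b).

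**Figure D1:**
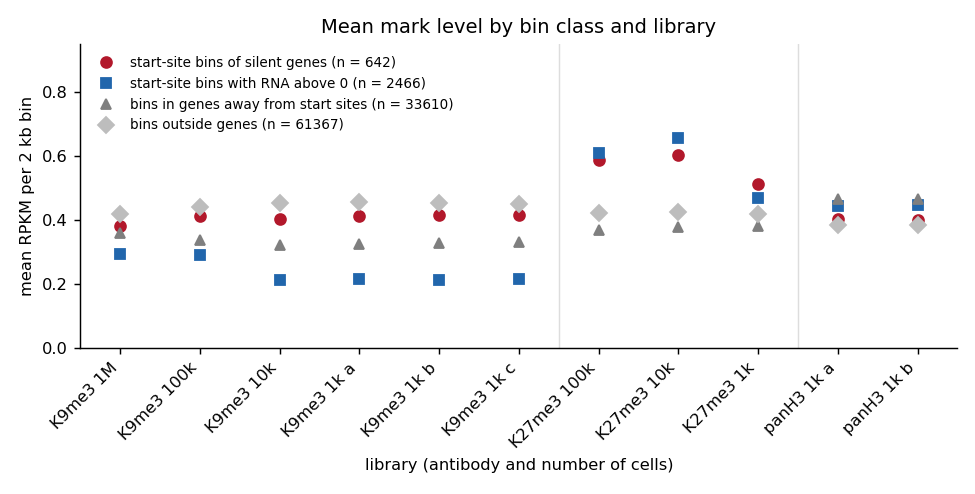
Mean RPKM per 2 kb bin (vertical axis) in each of the 11 bin libraries (horizontal axis; 1M, 100k, 10k and 1k are 1000000, 100000, 10000 and 1000 cells) for 4 classes of bins, 1 point per class and library. The circles of the silent start-site bins lie between 0.379 and 0.415 in the H3K9me3 libraries, and between 0.512 and 0.603 in the H3K27me3 libraries.

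H3K27me3 was called higher than panH3 in a larger share of silent start-site bins than of all bins. The share at start-site bins with RNA was larger still. Against panH3, 97 of 617 tested silent bins were called higher (15.7%), where 5.84% of all 93505 tested bins were, and 20 were called lower (3.2%), where 12.1% of all bins were. The median difference was 0.11, against -0.10 over all bins. Among start-site bins with RNA, 501 of 2465 were higher (20.3%) and 664 lower (26.9%), with a median of -0.27. In all 97 higher bins each H3K27me3 library lay above both panH3 libraries, and in 69 the difference was at least 1. Mark and cell number are partly confounded here, since panH3 was measured at 1000 cells only. The 3 H3K27me3 libraries, 1 per cell number, stand for the mark, so these p-values do not rest on replicates at 1 cell number. Without panH3 a the counts were 47 higher and 0 lower, without panH3 b 46 and 0, without the 100000-cell library 63 and 8, without the 10000-cell library 79 and 11, and without the 1000-cell library 135 and 50. Beside the 0 bins called lower by limma, 17 and 16 were lower at an unadjusted p under 0.05. With libraries centred on their medians, which moved the median over all bins from -0.10 to 0.08, 137 were higher and 7 lower, and with weights on recovered reads (voom) 139 and 33. In 37 of the 97 the call held with each of the 5 libraries left out in turn. For these alternatives the shares over all bins are not given, so the counts are not set against them.

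With uncentred libraries, H3K9me3 was called higher in a smaller share of silent bins than of all bins. Against panH3 at 1000 cells, 72 of 615 tested bins were higher (11.7%), where 15.2% of all 93575 tested bins were, and 74 were lower (12%), where 24.7% of all bins were. At start-site bins with RNA, 84 of 2465 were higher (3.4%) and 1682 lower (68.2%). The median difference was -0.03 in the silent bins, -1.10 at start sites with RNA and -0.10 over all bins. In the 72 higher bins the 3 H3K9me3 libraries all lay above both panH3 libraries, and in 18 the difference was at least 1. Centring the libraries changed the split to 115 higher (18.7%) and 44 lower. The shares over all bins are not given for centring or for left-out libraries, so the order against them is not known there. Without panH3 a the counts fell to 42 and 25, and without panH3 b to 47 and 28. The call held with each of the 5 libraries left out in turn in 33 of the higher and 13 of the lower bins.

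Sorted by these calls, 83 silent bins were higher in H3K27me3 only, 58 in H3K9me3 only, 14 in both and 463 in neither, while 24 could not be tested. A mark not called is not shown to be absent. In the direct comparison of the marks given below, 26 of the 58 were lower in H3K27me3, and of the 463, 75 were higher and 34 lower. Shares of these classes over all bins are not given, and the averages below are of the values that sorted the bins. Both comparisons share the panH3 libraries, so the overlap of 14 is given as a count with no test. The 83 bins with H3K27me3 only averaged 1.588, 1.766 and 1.065 RPKM of H3K27me3 at 100000, 10000 and 1000 cells, and 0.389 to 0.395 RPKM of H3K9me3 at 1000 cells. The 58 bins with H3K9me3 only averaged 0.831 to 0.868 RPKM of H3K9me3 at 1000 cells, with 0.452 to 0.527 RPKM of H3K27me3. In both classes panH3 averaged 0.394 to 0.411 RPKM, as it did over all silent bins. H3K9me3-only bins were most numerous on chromosome 7, with 13 of the 58, and 96 of the 642 silent bins lie there.

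**Figure D2:**
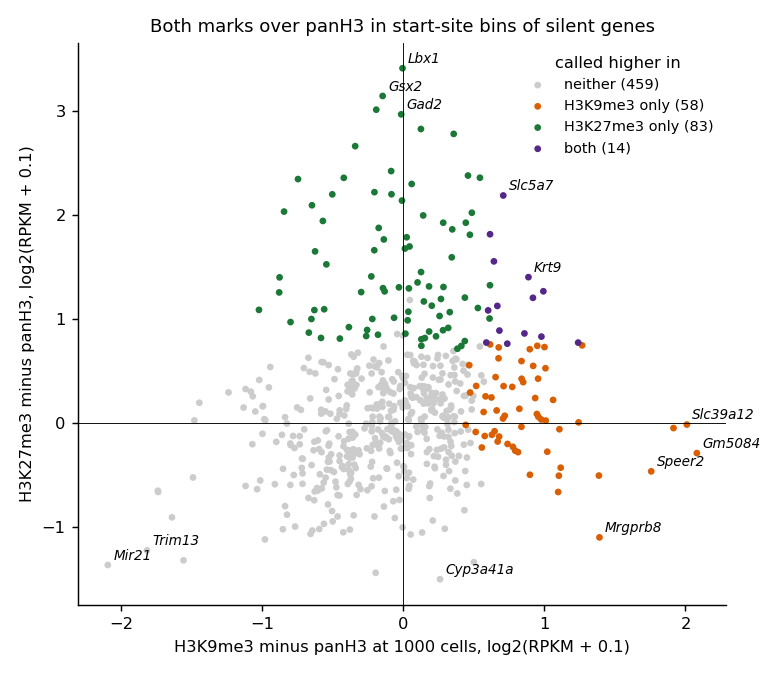
Each point is 1 of the 614 start-site bins of silent genes tested in both comparisons. The horizontal axis gives H3K9me3 minus panH3 and the vertical axis H3K27me3 minus panH3, both on the log2(RPKM + 0.1) scale, and colours give the mark called higher. The largest H3K27me3 differences (Lbx1, 3.41) sit at H3K9me3 differences near 0, and the largest H3K9me3 differences (Gm5084, 2.08) at H3K27me3 differences at or below 0.

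Transcription factor genes of the homeobox class headed the H3K27me3 bins. Lbx1, a homeobox gene of muscle precursors and dorsal spinal cord (bin chr19:45308001-45310000, holding the start site), had 4.09, 4.57 and 1.69 RPKM of H3K27me3 at 100000, 10000 and 1000 cells, against 0.25 and 0.17 in panH3 a and b. Its difference was 3.41 (SE 0.35, limma adjusted p 0.000204), and its H3K9me3 stayed at 0.18 to 0.23 RPKM in the 1000-cell libraries. All 3 H3K27me3 libraries of Lbx1 were above every other library. Gsx2 (chr5:75470001-75472000), whose promoter with 17 CG is shown above, had 3.71, 4.90 and 2.30 RPKM against 0.33 and 0.28, a difference of 3.15 (SE 0.30, limma adjusted p 0.00019). Hoxd8 (chr2:74542001-74544000), a segment identity gene, had 2.44, 2.55 and 1.19 RPKM against 0.14 and 0.17, and Hoxc11 (chr15:102782001-102784000) had 4.98, 4.93 and 2.42 against 0.48 and 0.45, close to the table's limit of 5 RPKM. These 3 bins hold or lie near genes that pattern the embryo, and in each the 3 H3K27me3 libraries were far above panH3. The fourth homeobox list member, Nkx2-6, was also higher (1.93). Thus 4 of 4 bins of that list were called higher in H3K27me3, where 5.84% of all bins were. In H3K9me3 0 of 4 were called (limma adjusted p 0.31 to 0.689, and 0 bins at an unadjusted p under 0.05). Over all bins 15.2% were higher and 24.7% lower in H3K9me3, and no difference from these shares is read from 4 bins.

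Other developmental regulators followed in part. Of 7 bins in that list 4 were called higher in H3K27me3 (57.1%, where 5.84% of all bins were). These were Gdf10 (2.30), Fgf20 (2.14) and Fgf6 (1.45), which encode secreted growth factors, and Pax4 (1.59), a regulator of pancreatic islet development. Gdf10 had 1.88, 2.25 and 1.19 RPKM of H3K27me3 against 0.29 and 0.25 in panH3. Neurod6 and Ascl3, helix-loop-helix transcription factor genes, were not called in H3K27me3 (0.53 and -0.17) and were called lower in H3K9me3 (-0.71 and -0.61). With centred libraries 5 of the 7 were higher in H3K27me3 and 0 lower in H3K9me3.

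Gad2, Nptxr and Lrrtm1, which belong to no list, were also among the largest H3K27me3 differences. Gad2 (chr2:22478001-22480000) had 3.13, 3.79 and 2.23 RPKM against 0.23 and 0.37 in panH3, a difference of 2.97 (SE 0.28, limma adjusted p 0.00019). Nptxr, a receptor for neuronal pentraxins (chr15:79634001-79636000), had 2.87, 2.35 and 0.88 RPKM against 0.27 and 0.15, and Lrrtm1, a synaptic adhesion gene (chr6:77192001-77194000), had 1.47, 2.09 and 0.88 against 0.19 and 0.17. The bins of both Nptxr and Lrrtm1 also overlap the body of another transcript with RNA of at least 1 RPKM. Among ion channel and neurotransmitter receptor genes 3 of 9 bins were higher in H3K27me3 (33.3%, where 5.84% of all bins were). Of these, 2 were at Gabrd (1.66 and 1.94), a GABA receptor subunit, and 1 at Kcnj5 (1.81), a potassium channel. Accn5 and Kcnk16 were called lower in H3K9me3 (-1.04 and -0.72).

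All 5 protocadherin bins, over 4 neighbouring genes of the Pcdhb cluster on chromosome 18, were called higher in H3K27me3, where 5.84% of all bins were. Their differences ran from 1.29 at Pcdhb13 to 1.86 at Pcdhb5. These genes encode cell adhesion molecules of neurons, and the bins share 1 locus, so they are not separate cases. Mean H3K27me3 over the 5 bins was 1.358, 1.530 and 0.982 RPKM at 100000, 10000 and 1000 cells. The bins of Pcdhb1 and Pcdhb5 overlap the body of a transcript with RNA of at least 1 RPKM. In Pcdhb1 H3K9me3 was also higher (0.64), a call lost without H3K9me3 b (0.60) or panH3 b (0.50) and with all 6 H3K9me3 libraries in the fit (0.48), and its H3K27me3 call was lost without panH3 b (1.42).

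Keratin and skin barrier genes held 5 bins of 20 higher in H3K27me3 (25%, where 5.84% of all bins were) and 3 higher in H3K9me3 (15%, near the 15.2% of all bins). Krt83 and Krt82, hair keratins, were higher in H3K27me3 (1.88 and 1.31), as were Krtap5-4 (1.68) and Lce3a (1.07), which encode hair and cornified envelope proteins. Krtap12-1 was higher in H3K9me3 (0.92) and Krt39 as well (0.47), while Sprr1a was lower in H3K9me3 (-0.78). Krt9 was called in both marks and is described further on. The immune list includes Mas-related receptors such as Mrgprb8. Of its 39 tested bins, 8 were higher in H3K9me3 (20.5%, where 15.2% of all bins were). In H3K27me3 6 were higher (15.4%, where 5.84% of all bins and 15.7% of all silent bins were). Among the immune genes H2-Ob (1.13), a class II histocompatibility gene, and Defb21 (1.01), a defensin, were higher in H3K27me3 only. Defa17 (0.81) and Ceacam14 (0.84) were higher in H3K9me3 only. The tumour necrosis factor gene Tnf, outside the lists, was higher in H3K27me3 (1.70).

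The largest H3K9me3 differences were at Gm5084, Slc39a12, Gm12776 and Speer2. Slc39a12 (chr2:14308001-14310000) had 1.62, 1.86 and 1.73 RPKM of H3K9me3 in the 1000-cell libraries a, b and c and 0.46 and 0.27 RPKM in panH3. The difference was 2.01 (SE 0.18, limma adjusted p 6.46e-09), and the libraries of more cells gave 1.43, 1.68 and 1.83 RPKM, so that all 6 H3K9me3 libraries lay above all others. Gm5084, a predicted gene (chr13:60304001-60306000), had 1.05, 0.76 and 0.83 RPKM against 0.12 and 0.14, a difference of 2.08 (SE 0.22, limma adjusted p 5.16e-08). Its H3K27me3 was 0, 0.20 and 0.12 RPKM.

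Speer2 (chr16:69864001-69866000), shown above with 3 CG in its promoter, had 1.17, 1.80 and 1.88 RPKM of H3K9me3 against 0.44 and 0.36 in panH3, a difference of 1.76 (SE 0.19, limma adjusted p 7.95e-08). Speer4d and Speer4f of the same family were higher too (0.84 and 0.82), but Speer4d had the highest panH3 of all silent bins, 1.49 and 1.52 RPKM, and its level cannot be assigned to 1 gene copy with certainty. With Pramef6 (0.58) these made 4 of 13 germline bins called higher (30.8%, where 15.2% of all bins were), with Tctex1d1 lower (-0.83). The predicted gene Gm12776 on chromosome 7 was higher in 2 neighbouring bins (1.92 and 1.39). Dmrtc1a, a DMRT-like gene on chromosome X, was higher by 1.27 and Olfr743, an odorant receptor, by 1.24.

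Mrgprb8 was the 1 silent bin called higher in H3K9me3 and lower in H3K27me3. Its H3K9me3 was 1.17, 1.23 and 1.10 RPKM at 1000 cells, panH3 was 0.43 and 0.34, and H3K27me3 was 0.13, 0.07 and 0.19. The differences were 1.39 (limma adjusted p 8.6e-07) and -1.10 (limma adjusted p 0.0335). The lower H3K27me3 call was lost without the 100000-cell library (-1.12), the 10000-cell library (-0.90), panH3 a (-0.97) or panH3 b (-1.24), and with libraries centred on their medians (-0.92). The related gene Mrgprb3 was called higher in both marks (1.24 in H3K9me3 and 0.77 in H3K27me3), the second of these being lost without the 100000-cell library (0.83), the 1000-cell library (0.59), panH3 a (0.61) or panH3 b (0.94), and with a pseudocount of 1 RPKM (0.32).

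**Figure D3:**
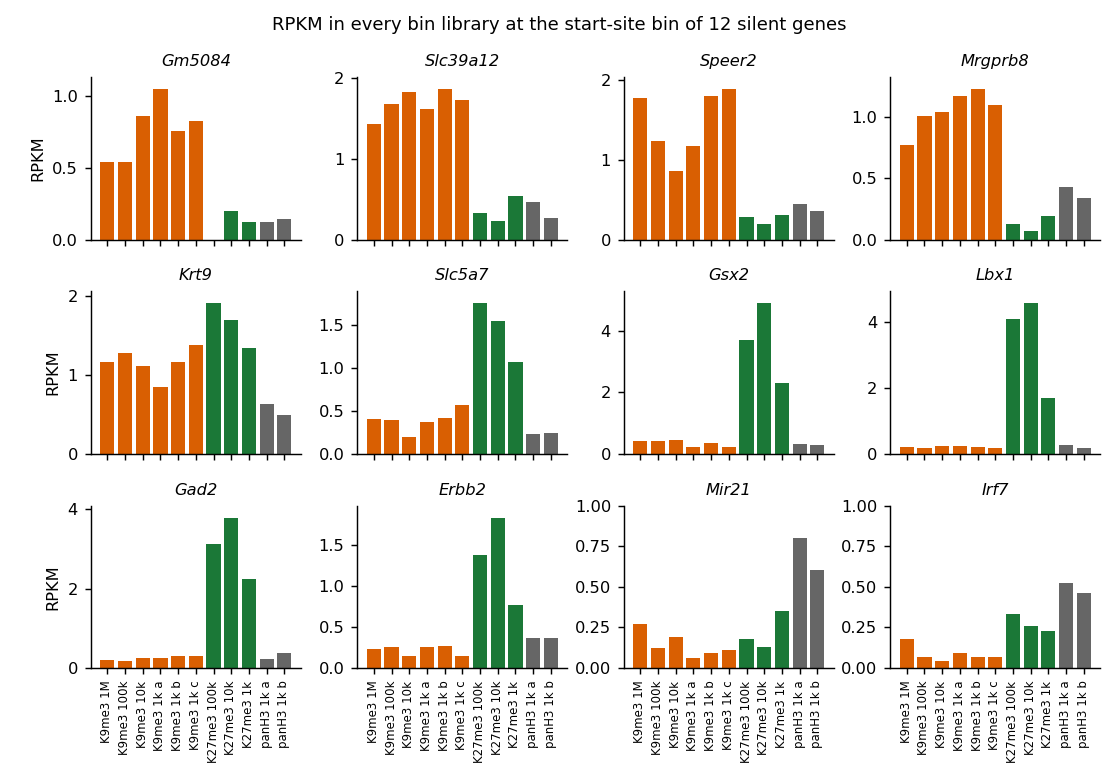
RPKM (vertical axes, each panel with its own scale from 0) in the 11 bin libraries (horizontal axes; orange H3K9me3, green H3K27me3, grey panH3) for 12 start-site bins of silent genes, 1 bar per library. Gm5084, Slc39a12, Speer2 and Mrgprb8 are high in every H3K9me3 library, Gsx2, Lbx1 and Gad2 are high in every H3K27me3 library, and Mir21 and Irf7 are lowest in H3K9me3 with panH3 of 0.46 RPKM or more.

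Bins called higher in both marks were few, and none kept both calls when each library was left out in turn (0 of 14). Krt9 (chr11:100052001-100054000) had 0.85, 1.17 and 1.38 RPKM of H3K9me3 at 1000 cells, 1.91, 1.70 and 1.34 RPKM of H3K27me3, and 0.63 and 0.49 RPKM of panH3. Its differences were 0.89 (limma adjusted p 0.000472) and 1.40 (limma adjusted p 0.00253), and the H3K27me3 call was lost without panH3 b (1.25). Slc5a7, the choline transporter of cholinergic neurons (chr17:54438001-54440000), had 1.75, 1.54 and 1.07 RPKM of H3K27me3 against 0.23 and 0.24 in panH3 (2.19, limma adjusted p 0.000259). Its H3K9me3 of 0.37, 0.42 and 0.57 RPKM gave a difference of 0.71, a call lost without H3K9me3 c (0.56), panH3 a (0.69) or panH3 b (0.73), with the letters a and b as a replicate block (0.56) and with all 6 H3K9me3 libraries (0.51). Cd207, a lectin of Langerhans cells, was called in both (0.61 and 1.81), and its H3K9me3 call was lost without H3K9me3 a (0.31), H3K9me3 b (0.69), panH3 a (0.60) or panH3 b (0.63), and with all 6 H3K9me3 libraries (0.39). Whether both marks lie on the same cells cannot be told from bulk libraries.

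Odorant and pheromone receptor genes were mostly called higher in neither mark, as were 72.1% of the 642 silent bins. Of 135 olfactory receptor bins, over 126 genes, 117 were in neither class. H3K9me3 was higher in 13 (9.6%, where 15.2% of all bins were) and lower in 12 (8.9%, where 24.7% were), with a median of -0.08. H3K27me3 was higher in 7 (5.2%, near the 5.84% of all bins) and lower in 7 (5.2%, where 12.1% were), with a median of -0.18. Mean H3K9me3 at 1000 cells was 0.426 ± 0.014 RPKM (SD, n = 3) and mean panH3 0.421 RPKM (n = 2). Centring turned both medians positive (0.09 and 0.01) and gave 22 higher and 2 lower in H3K9me3, and 15 and 1 in H3K27me3, so no direction is given for the family. Beside Olfr743, examples higher in H3K9me3 were Olfr784 (1.11) and Olfr338 (1.10). Olfr462 was called in both marks (0.99 and 1.26), its H3K27me3 call being lost without the 100000-cell library (1.11) or panH3 a (1.11). Of 42 vomeronasal receptor bins 40 were tested. In this family H3K9me3 was higher in 4 (10%, where 15.2% of all bins were), among them Vmn1r45 (1.02) and Vmn2r69 (0.90). In H3K27me3 1 was higher, Vmn1r234 (2.5%, where 5.84% of all bins were). Its difference was 0.92, and it was not called without the 100000-cell library (0.85), panH3 a (0.91) or panH3 b (0.93).

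Liver and placental families had 0 of 13 and 0 of 10 bins called higher in H3K27me3 by limma, where 5.84% of all bins were, and no difference from that share is read from lists of this size. Of 13 cytochrome P450 and liver bins, Serpina1d (0.93), a protease inhibitor gene, and Cyp2a22 (0.71) were higher in H3K9me3, and Cyp3a41a was lower in H3K27me3 (-1.51), a call lost without the 100000-cell library (-1.69), panH3 a (-1.48) or panH3 b (-1.53). Of 10 placental bins, Psg18 (0.95) and Ceacam14 (0.84) were higher in H3K9me3, and the Psg18 call was lost without panH3 a (0.67). Ceacam14 is counted in the immune list as well. At an unadjusted p under 0.05 in limma, 0 liver and 1 placental bin were higher in H3K27me3, and voom called 0 and 1, and centring 0 and 1. Predicted and serially named genes had 112 bins, of which 94 were tested. H3K9me3 was higher in 10 (10.6%, where 15.2% of all bins were). H3K27me3 was higher in 13 (13.8%, where 5.84% of all bins and 15.7% of all silent bins were), with 2610100L16Rik the highest (2.78). Of the remaining lists, 1 bin belonged to a taste receptor (Tas2r118, called in neither mark) and no bin to a zinc finger gene.

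**Figure D4:**
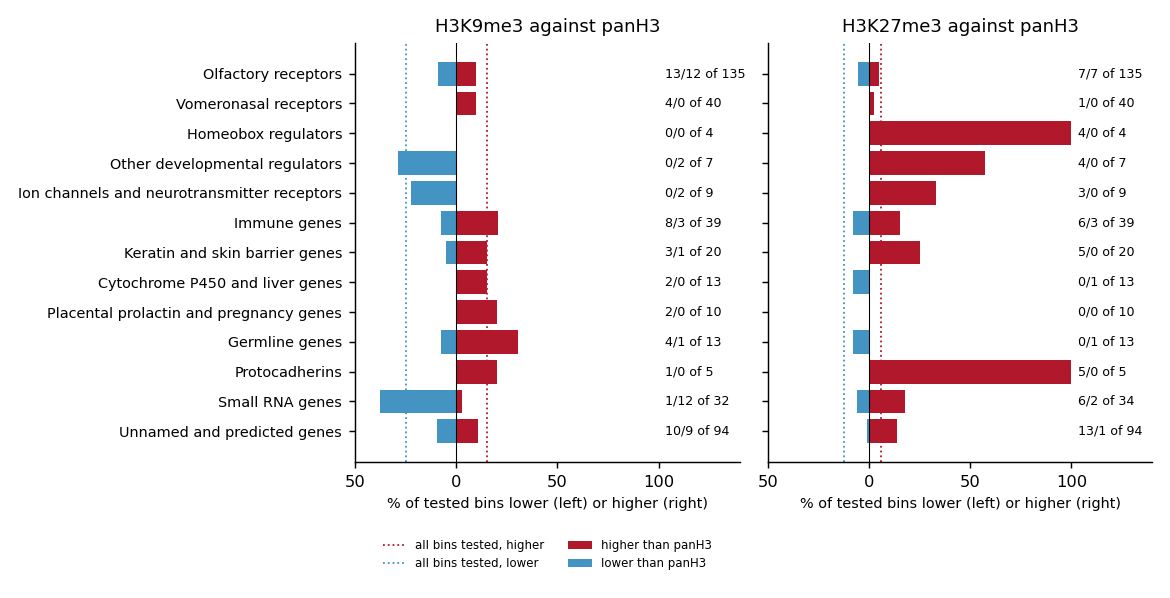
Percent of the tested start-site bins of silent genes called higher (bars to the right) or lower (bars to the left) than panH3 in each gene list with 4 or more tested bins, for H3K9me3 (left panel) and H3K27me3 (right panel). Dotted lines give the shares over all bins tested (15.2% and 24.7% for H3K9me3, 5.84% and 12.1% for H3K27me3), and the numbers are bins higher / lower of those tested.

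Of 32 tested bins of small RNA genes, 12 were called lower in H3K9me3 (37.5%, where 24.7% of all bins were) and 1 higher (3.1%), with a median of -0.60, and 10 were lower with centred libraries. In the same list 6 of 34 were higher in H3K27me3 (17.6%, where 5.84% of all bins and 15.7% of all silent bins were). RefSeq mature sequences (GRCm38.p6) are shown for the microRNAs that stood out, with the seed, bases 2 to 8, in capitals. Mir193 (chr11:79711975-79711996 and chr11:79712009-79712030, plus strand) was higher in H3K27me3 in 2 neighbouring bins.
mmu-miR-193a-5p: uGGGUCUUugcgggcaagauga
mmu-miR-193a-3p: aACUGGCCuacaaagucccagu
The muscle microRNAs Mir206 (chr1:20679055-20679076, plus strand) and Mir208b (chr14:54975710-54975731, minus strand) were higher in H3K27me3 as well.
mmu-miR-206-3p: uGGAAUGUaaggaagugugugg
mmu-miR-208b-3p: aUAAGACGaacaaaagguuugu
Mir21 (chr11:86584120-86584141, minus strand), a microRNA common in dividing and tumour cells, had the most negative H3K9me3 difference of all silent bins.
mmu-miR-21a-5p: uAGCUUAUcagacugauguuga
The Mir193 bin that holds the start site had 2.31, 3.10 and 1.11 RPKM of H3K27me3 against 0.48 and 0.32 in panH3 (2.09, limma adjusted p 0.00182). Differences in H3K27me3 were 0.81 at Mir206 and 1.32 at Mir208b.

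The most negative H3K9me3 differences were at Mir21, Trim13, Hils1 and Irf7, of which Mir21 alone belongs to a list. Mir21 had 0.06, 0.09 and 0.11 RPKM of H3K9me3 at 1000 cells against 0.80 and 0.60 in panH3, a difference of -2.10 (SE 0.26, limma adjusted p 5.82e-07), and its bin overlaps the body of a transcript with RNA of at least 1 RPKM. Trim13, a ubiquitin ligase gene, had 0.06, 0.10 and 0.06 RPKM against 0.46 and 0.56 (-1.82, limma adjusted p 3.8e-06), and Irf7, an interferon regulator, 0.09, 0.07 and 0.07 against 0.52 and 0.46 (-1.74, limma adjusted p 5.41e-06). Hils1, a spermatid histone gene, was lower by 1.74 on the log2 scale, and its bin overlaps a transcript with RNA above 0. In each of these 4 bins the H3K9me3 libraries of 1000 cells lay below both panH3 libraries. Of 35 tested bins that overlap the body of a transcript with RNA above 0, 10 were lower in H3K9me3. This 28.6% is near the 24.7% of all bins, while 64 of 580 other silent bins were lower (11%). Of 34 tested bins whose silent transcripts have under 200 bases of exon, 12 were lower (35.3%, where 24.7% of all bins were). These bins were not counted apart from the small RNA list above.

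H3K4me3 at start sites was low for most silent genes. Windows of 1 kb were available for 535 silent transcripts of the members, with a median of 0.30 RPKM at 100000 cells, against 4.40 RPKM over transcripts with RNA of at least 1 RPKM. Only 4 of the 535 reached 4.40 RPKM: Erbb2 (8.73), a growth factor receptor tyrosine kinase, Acvr2a (6.56), an activin receptor, Rab3gap2 (6.26), a GTPase regulator, and Nptxr (6.02). Erbb2 and Nptxr were high in H3K27me3, while Acvr2a and Rab3gap2 were called lower in H3K9me3 at 1000 cells. Rab3gap2 was also called lower in H3K27me3 (-1.325). At 1000000 and 100000 cells H3K9me3 of Rab3gap2 was 0.46 and 0.81 RPKM, beside 0.71 and 0.59 RPKM in panH3 a and b. By class, a window of at least 2 RPKM stood in 6 of 66 bins with H3K27me3 only, 0 of 50 with H3K9me3 only, 0 of 14 with both and 4 of 368 with neither. Erbb2 had 1.37, 1.83 and 0.77 RPKM of H3K27me3 against 0.37 and 0.37 in panH3. The H3K9me3 call of Acvr2a was lost without panH3 b (-0.95), and that of Rab3gap2 with all 6 H3K9me3 libraries (-1.07). The 1 H3K4me3 library per cell number allows no test, and the windows at 10000 and 5000 cells had a median of 0 over silent transcripts.

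Moving just past the rule's threshold, H3K27me3 was called in a larger share of bins, and in a smaller one at higher RNA. Start-site bins whose highest RNA was above 0 and up to 0.05 RPKM (197 bins) were higher in H3K27me3 in 43.7% and in H3K9me3 in 8.1%. With RNA above 0.05 and up to 1 RPKM (675 bins) the shares were 33.9% and 4.7%, and at 1 RPKM or more (1594 bins) 11.7% and 2.3%. The share lower in H3K9me3 was 12% in the silent bins and 25.4%, 45.9% and 83.0% in these 3 classes. The bins nearest to the threshold, all at 0.01 RPKM, belonged to Nr1h4, Rad51ap2, Rbp3 and Krt71, and of these Rad51ap2 was called higher in H3K27me3 (1.52), with 1.45, 1.70 and 0.46 RPKM. Exon length, which sets how low an RPKM can be seen, differs between silent and other transcripts, and its part in this order was not tested.

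Set against each other at matched cell numbers, H3K27me3 exceeded H3K9me3 in 155 of 617 tested silent bins (25.1%), where 14.3% of all 93578 tested bins did, and fell below it in 61 (9.9%), where 13.7% of all bins did. This fit used 3 H3K27me3 and 5 H3K9me3 libraries of 100000, 10000 and 1000 cells with cell number as a block, and no panH3. At start-site bins with RNA the share higher was larger, with 1152 of 2465 (46.7%), and 66 were lower (2.7%). Among the named bins, Lbx1 (3.33), Gad2 (3.11) and Gsx2 (2.90) were highest, and Mrgprb8 (-2.34), Gm5084 (-2.16) and Slc39a12 (-1.97) lowest. Of 13 tested cytochrome P450 and liver bins, 5 were called lower in H3K27me3 than in H3K9me3 (38.5%, where 13.7% of all bins were) and 0 higher. All 7 developmental regulator bins and all 4 homeobox bins were called higher, where 14.3% of all bins were. Leaving out a cell number gave 122 to 132 bins higher and 41 to 50 lower, and 96 and 24 held in all 3 of these fits.

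Over all 642 silent bins the mean level of H3K27me3 was lowest at 1000 cells, as given above, but the median was not, with 0.46, 0.42 and 0.46 RPKM at 100000, 10000 and 1000 cells. Of 280 silent bins with a mean of at least 0.5 RPKM of H3K27me3, 181 were lower at 1000 than at 100000 cells and 95 higher, with a median difference of -0.19. In the homeobox bins the mean was 3.215, 3.675 and 1.822 RPKM at 100000, 10000 and 1000 cells, so the lowest level, at 1000 cells, was still above panH3 at 0.330 RPKM. The largest fall was at Nptxr (-1.60), and the largest rise at Tpsg1, a mast cell tryptase gene (0.31, 0.88 and 0.88 RPKM). For H3K9me3 the median over the silent bins was 0.355 RPKM at 1000000 cells and 0.37 to 0.39 in the other 5 libraries. Among bins with a mean of at least 0.5 RPKM of H3K9me3, the largest rise was at Olfr993 (0.26 RPKM at 1000000 cells, and 0.80, 0.67 and 0.41 at 1000). H3K9me3 at 1000 cells has 3 libraries and every other cell number of either mark has 1, so no change with cell number was tested.

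The gene table gives H3K27me3 at the start sites of all 5782 silent transcripts and places the sampled bins in the wider set. Its median was 0.38, 0.37 and 0.38 RPKM at 100000, 10000 and 1000 cells, and 228 transcripts (3.94%) of 208 genes reached 1 RPKM in all 3 libraries. Homeobox regulators reached that level in 40 of 57 silent transcripts (70.18%) and other developmental regulators in 25 of 47 (53.19%). The highest were Tcfap2b, a neural crest regulator (4.32, 5.19 and 2.79 RPKM), and Hoxb8 (4.23, 5.52 and 2.50 RPKM), followed among homeobox genes by Hlx, Hoxa6, Hoxb6 and Nkx2-1. These were named from the transcripts at 1 RPKM or more in all 3 libraries, so their level at 1000 cells was set by that choice.

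Protocadherins reached it in 1 of 12 transcripts (8.33%), with medians of 1.22, 1.44 and 0.85 RPKM beside 1.70, 1.65 and 1.09 RPKM in the other developmental regulators. Several lists were below the 3.94% over all silent transcripts. Olfactory receptors reached 1 RPKM in 11 of 1057 transcripts (1.04%), immune genes in 7 of 328 (2.13%), and keratin and skin barrier genes in 0 of 120, although 5 of their 20 sampled bins were called higher than panH3. Vomeronasal receptors (0 of 348), cytochrome P450 and liver genes (0 of 129), placental genes (0 of 57) and taste receptors (0 of 32) had none. Among small RNA genes 15 of 455 reached it, with Mir196a-2, which lies in a Hox cluster, at 3.93, 3.74 and 2.52 RPKM, and with Mir124a-2 and Mir9-1, microRNAs of neurons, next. Ion channels and neurotransmitter receptors reached it in 6 of 53 (11.32%), Kcnk15 and the serotonin receptor genes Htr1a and Htr1b being the highest. These are levels in single libraries, with no test.

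**Figure D5:**
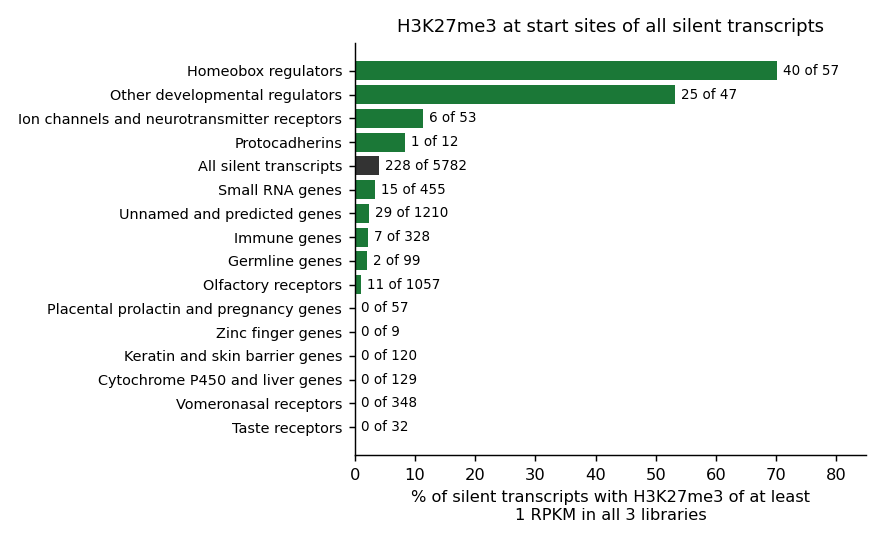
Percent of silent transcripts in each gene list (horizontal axis) whose H3K27me3 within 1 kb of the start site was at least 1 RPKM in all 3 libraries, with the number of transcripts beside each bar. Homeobox regulators (40 of 57) and other developmental regulators (25 of 47) stand above the share over all silent transcripts (black bar, 228 of 5782).

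Some silent bins had little signal in panH3 as well. The 38 silent bins on chromosome X, of which male cells have a single copy, averaged 0.174 RPKM of panH3, against 0.381 RPKM on the autosomes other than 1, 8 and 11 and 0.601 RPKM on those 3. Of 71 bins with a mean panH3 under 0.2 RPKM, 44 were tested in H3K9me3, and 7 were called higher (15.9%, near the 15.2% of all bins). These bins were picked for low panH3 and compared with that same panH3, so no direction is read from the calls. The bin at 10 predicted genes on chromosome X, among them Gm10058 and Gm10096, had no read in 10 of 11 libraries and 0.01 RPKM in the other. At Vmn1r142 and Vmn1r94 panH3 was 0 and 0.01 RPKM. Mir1186b (1.19 and 0.91) and Clec2e (0.88 and 0.95), a C-type lectin gene, had the highest panH3 after Speer4d. Both were called lower in H3K9me3 (-0.80 and -0.86), the Mir1186b call being lost without panH3 a (-0.63). Being picked for high panH3 favours a lower call.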

How the data were processed

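Wildtype TT2 cells were profiled by ChIP-seq and RNA sequencing on an Illumina platform from both read ends, per the labels' protocols. BWA and SAMtools were used with genome mm9, per the submitters' processing notes. Versions, the counting tool and read filters were not given in the sources used here. The authors deposited RPKM values, 1 column per library and not pooled, per the file headers. Headers give no unit for panH3, and its 2 columns were read as RPKM because their values step like those beside them. Exon and gene lengths in base pairs came with the gene table that the authors deposited, and 2 columns of another series in the H3K4me3 table were not used.

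In bins of equal length RPKM comes in steps of 1 read, and 100% of low values in every library were whole multiples of that step to 2 decimals. This gave depths of 13.04 to 45.52 M reads. Intervals from depth would cover counting error only, and none is given.

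Tests used limma 3.58.1 in R 4.3.3 on log2(RPKM + 0.1) with an intensity trend and robust moderation, two-sided, over all bins above 0 in at least 1 library of the comparison, adjusted by Benjamini-Hochberg at 0.05. The fit was tested on simulated data first. H3K9me3 and panH3 share the letters a and b, but no label pairs them, and the deviations of a and b did not correlate over bins (-0.00955). The members and gene lists were chosen with earlier results of these data known. Named bins were taken by rule: the largest differences in each direction, the bins called in both marks, extremes of panH3, of H3K4me3 and of change with cell number, the highest of each list, and the 4 just outside the RNA threshold. Other called members of a list are named as examples and were chosen after their values were seen. Promoters and microRNAs come from RefSeq (GRCm38.p6) by gene name, and no coordinate was converted between builds. Alternatives covered pseudocount, centring, a filter on low levels, read weights (voom), libraries left out, the replicate block and narrower definitions of the bins.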

Additional observations from a re-analysis of the deposited data

How the results depend on the processing

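Shares of tested silent bins depended most on the panH3 libraries and on scaling. With libraries centred on their medians, H3K9me3 was higher in 18.7% and lower in 7.2% (11.7% and 12% as reported), and H3K27me3 lower in 1.1% (3.2% as reported). Weights on recovered reads gave 5.3% lower in H3K27me3. Leaving out 1 library in turn gave 6.8% to 15.4% higher and 4.1% to 16.4% lower for H3K9me3 and 7.5% to 21.9% higher and 0.0% to 8.1% lower for H3K27me3. Leaving out each cell number in turn, which drops 2 to 4 libraries, gave 19.8% to 21.5% higher and 6.7% to 8.1% lower for H3K27me3 against H3K9me3. In the fits without panH3 a or b limma called 0 bins lower in H3K27me3, where 17 and 16 had an unadjusted p under 0.05. The 1000-cell H3K27me3 library alone, counted by a log2 difference of at least 1, gave 10% higher. Every other alternative to these shares stayed within 1.5 times, among them the replicate block (11.5% higher and 11.7% lower in H3K9me3), bins that hold the start site, members off chromosomes 1, 8 and 11, and transcripts of at least 1000 bases of exon. The block keeps 66 of the 72 higher and 59 of the 74 lower calls, and the letters share only a name.

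Medians over the bins were 0.383 RPKM for H3K9me3 at 1000 cells, 0.447 for H3K27me3 and 0.410 for panH3, where the means were 0.413, 0.567 and 0.400, so the order of H3K9me3 and panH3 turns with the summary. Among silent transcripts of at least 1000 bases of exon the gene table's H3K27me3 median was 0.440, 0.450 and 0.420 RPKM. Of the named bins, 35 called in H3K9me3 and 36 called in H3K27me3 kept their direction in all 385 and 324 refits, of which 26 and 49 missed the threshold. A step of 1 read is 0.011 to 0.038 RPKM, which limits what low bins can show.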
